A study of Homo sapiens with 8 samples.

Results

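The genes described here are the eukaryotic translation initiation and elongation factors, taken as the gene symbols of the deposited table that begin with EIF or EEF and a digit. The eIF2 kinases (EIF2AK symbols) and symbols ending in P and a number were left out, which leaves 54 of the 11530 genes in the table. Of 76 symbols with the right beginning, 4 kinases, 15 pseudogene symbols and the 3 genes of the eIF4E-binding proteins were dropped in this way. All 54 genes passed the filter on low values, which asked for a linear value of at least 1 in 4 or more libraries.

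RNA was measured in MonoMac 6, an established human line from an acute monocytic leukaemia, in 4 libraries with APRIL and 4 control libraries without it. APRIL is a cytokine of the TNF family, given as human protein at 100 ng/mL for 24 h in RPMI medium that the labels call serum-free. According to the series text both groups had baseline cytokines in their medium, and stock cultures grew in 10% serum with penicillin and streptomycin. The serum content of the control medium is not stated, so APRIL and a change of serum cannot be told apart. The labels do not say that the libraries came from separate cultures. The spread that the p-values measure is thus that of these libraries and may be technical.

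Translation initiation brings the initiator tRNA, the messenger RNA and both ribosomal subunits together. The complex eIF4F binds the cap of the messenger and unwinds it, eIF2 carries the initiator tRNA, eIF3 holds the parts on the small subunit, and eIF5B joins the large subunit. The elongation factors eEF1 and eEF2 then deliver each charged tRNA and move the ribosome along. The kinase mTORC1 governs the translation of many of these messengers, which begin with a C and a run of pyrimidines called a TOP motif.

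The depth was read from the deposited values, which resolve into whole reads for 11141 genes (96.63%). Over those genes the libraries held 928040 to 5308916 reads, the fewest in APRIL column 3 and the most in APRIL column 2. Columns are numbered by their order in the table, since the headers carry no replicate number. Library quality weights from limma, a linear model fitted to all genes, were lowest for APRIL column 3 at 0.117 and control column 1 at 0.316, and highest for APRIL column 1 at 5.46. Of 14 monocyte and myeloid markers, 12 were in the table, 10 with recovered reads. The summed level of these 10, in RPKM (recovered reads scaled to transcript length and library depth), was 303 to 382 in APRIL libraries and 253 to 330 in control libraries, with none at 0. CD14, a defining monocyte marker, had 12.3 to 22.9 RPKM with APRIL and 6.98 to 14.9 in control. Of 10 B and plasma cell markers 6 were in the table (summed 47.2 to 51.4 RPKM with APRIL, 42.2 to 50.7 in control), and of 10 T and NK markers 3 were. TRAC and CD8A summed to 4.46 to 7.95 and 3.03 to 7.36 RPKM, and NKG7 had no recovered reads. APRIL column 3 held the highest of the 8 values for 4 of the 12 monocyte markers and the lowest for 2 (CD86 and ITGAX). NKG7 was highest there (log2 value 12.19, next 11.20), while TRAC was lowest of the APRIL libraries (3.67). The part of these markers in the results below was not tested. No gene of the erythroid and stromal lists was analysed here.

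Between APRIL and control, 0 of the 54 factors passed limma's adjusted threshold of 0.05, as for 0% of all 11257 tested genes. At an unadjusted p under 0.05 there were 6 factors, 2 with higher values in APRIL libraries (6.25% of all genes were) and 4 with lower values (5.69% were). That is 11.1% of the factors against a background of 11.9% of all genes. The 6 are the subunit-joining factor EIF5B, the eIF3 scaffold EIF3A, the eIF4F scaffold EIF4G3 and the helicase cofactor EIF4B on the lower side, with EIF5A and the exchange factor subunit EEF1D on the higher side. The smallest adjusted p among the 54 was 0.3999 in limma with Benjamini-Hochberg adjustment. Voom on recovered reads, which covered 42 factors, gave 0 past the adjusted threshold and 4 unadjusted, against 11% of its genes.

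The number of factors at an unadjusted p under 0.05 moved with single libraries. It was 5 without APRIL column 3 (9.28% of all genes), 4 without APRIL column 1 (10.2%) and 3 without APRIL column 3 and control column 1 together (7.52%). It was 10 without APRIL column 2 (20% of all genes), 1 without APRIL column 4 (5.94%), 1 without control column 1 (4.5%), and 1 without control column 3 (7.22%). It was 3 without control column 2 (9.38%) and 2 without control column 4 (10.8%). Of the factors, 0 passed the adjusted threshold in each of these fits.

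The median change over the 54 factors, APRIL minus control on the log2 scale, was +0.06, beside -0.01 over all tested genes. The change of a single gene is given with its standard error from limma. A positive change was seen for 32 of 54 (59.3%), against 49.3% of all genes. Without APRIL column 3 the median change of the factors was +0.01, with 28 positive. In that fit 10 of 54 changes turned sign, 19 others were smaller by more than 1.5 times and 6 were larger by more than 1.5 times. The same shares over all genes were not computed. The 95% interval of a single factor's change had a median half-width of 0.33, without adjustment over genes. A measured change smaller than its own half-width does not reach an unadjusted p under 0.05. Shifts larger than 0.33 can also be missed at the adjusted threshold. The smallest shift that could be detected for a typical factor was not tested. The lowest and the highest change of the 54 were -0.52 and +0.52. In bulk RNA, fewer cells of a type and less RNA per cell cannot be told apart.

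For 5 factors all 4 APRIL values lay below all 4 control values, namely EIF5B, EIF3A, EIF4B, EIF2S3L and EIF4G2. For 0 factors they lay above. Over all tested genes the APRIL values lay wholly below for 4.19% and wholly above for 3.62%, together 7.81%, beside 5 of 54 here. Each of the 5 belongs to initiation and none to elongation. The elongation group holds only 6 of the 54 factors, and this split was not tested.

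**Figure D1:**
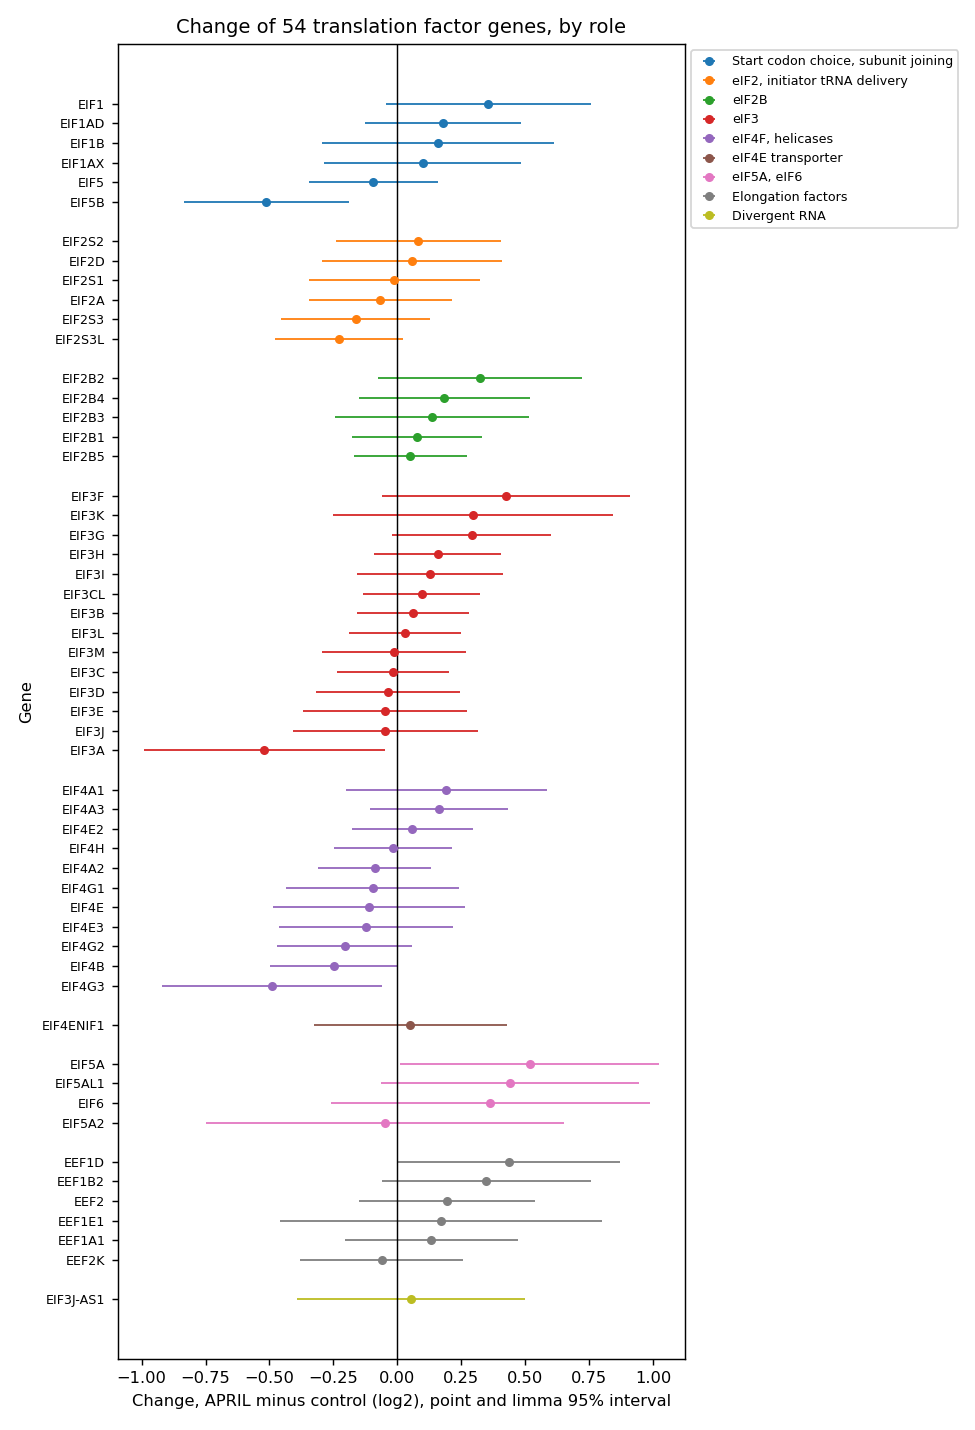
Change of each of the 54 translation factor genes, APRIL minus control in log2 units (x axis), grouped and coloured by role, with the point at the limma estimate and the bar its 95% interval. The intervals of EIF5B, EIF3A, EIF4G3 and EIF4B lie below 0, those of EIF5A and EEF1D lie above 0, and the other 48 cross it.

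The starts of the messengers are shown because TOP messengers are a class defined by their first bases. A start was called TOP-like where the first transcribed base in RefSeq is C and at least 4 further pyrimidines (C or T) follow. This was read on the transcribed strand only, and the definition was chosen after the changes had been seen. Of the 54 factors, 46 had an entry among the RefSeq start sequences used here. Of these, 13 (28.3%) had a TOP-like start, against 5.14% of 27305 genes with an entry. The windows below run from 10 bases before the annotated start to 20 bases from it, 5′ to 3′, with the pyrimidine run in capitals.
EEF1A1: cgtgaacgttCTTTTTCgcaacgggtttgc
EEF1B2: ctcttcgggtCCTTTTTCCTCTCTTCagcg
EEF2: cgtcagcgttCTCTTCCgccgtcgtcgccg
EIF3F: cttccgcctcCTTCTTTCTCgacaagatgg
EIF4B: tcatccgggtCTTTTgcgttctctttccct
EIF2S3: gatttccttcCTCTTTTggcaacatggcgg
EIF2S3L: gactttcttcCTCTTTTggcaacatggcgg
EIF1: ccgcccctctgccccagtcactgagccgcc
EIF5B: ctgagaactcacaccatatgtgtcctgttc
The first 3 belong to the elongation factors EEF1A1 (chr6:73521013-73521042, minus strand), EEF1B2 (chr2:206159885-206159914, plus strand) and EEF2 (chr19:3985444-3985473, minus strand). EIF3F (chr11:7987327-7987356, plus strand) and EIF4B (chr12:53006446-53006475, plus strand) are initiation factors with such a run. EIF2S3 (chrX:24054946-24054975, plus strand) and its copy EIF2S3L, named EIF2S3B in RefSeq (chr12:10505880-10505909, plus strand), have the same run at the start shown. EEF1B2 and EIF2S3L each have another annotated start, not shown, that is not TOP-like. A factor was counted where any of its annotated starts was TOP-like. EIF1 (chr17:41688875-41688904, plus strand) and EIF5B (chr2:99337379-99337408, plus strand) have none at the annotated start and are shown for contrast. Coordinates and sequences are those of GRCh38.p14, while the authors aligned to hg19, and an annotated start need not be the one used in these cells.

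The 13 factors with a TOP-like start had a median change of -0.01, with 6 positive, and the 33 with an entry and no such start had +0.06, with 20 positive. With APRIL column 3 left out these were -0.03 with 4 positive and +0.01 with 18 positive. The remaining 8 had no entry among the start sequences used, EEF1D, EIF3E and EIF3H among them. Among the 13, EIF3F had the highest change and EIF4B the lowest. A second grouping, by the TOP messengers known from textbooks, covered EEF1A1, EEF1B2, EEF1D, EEF2, EIF3E, EIF3F, EIF3H and EIF4B. Of these 8, 6 had a positive change, with a median of +0.18. Limma's adjusted threshold was passed by 0 of the 8, and EEF1D and EIF4B had an unadjusted p under 0.05, as did 11.9% of all genes. Their median was +0.15 when APRIL column 3 was left out. It was +0.11 after removing the trend of each library with transcript length and GC content.

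Among the factors of start codon choice and subunit joining, 4 of 6 had a positive change (median +0.13), and EIF5B stood apart on the lower side. EIF5B, a GTPase that joins the large ribosomal subunit (chr2:99337353-99401326 in GENCODE on GRCh38), had log2 values of 10.53, 10.68, 10.10 and 10.50 with APRIL (columns 1 to 4), against 11.21, 10.91, 10.81 and 10.93 in the control columns. The highest APRIL value was below the lowest control value, and the change was -0.51 ± 0.15 (95% interval -0.83 to -0.19, limma adjusted p = 0.3999). That is a linear ratio of 0.701. The change was -0.40 without APRIL column 3 and -0.31 without that library and control column 1 together. After removal of the trends of each library with length and GC it was -0.25. Its unadjusted limma p was under 0.05 in each fit that left out 1 library.

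EIF1, which keeps the scanning ribosome selective for the start codon, had the highest change of this group. Its log2 values were 9.80, 9.68, 10.55 and 9.89 with APRIL (columns 1 to 4), against 9.67, 9.48, 9.70 and 9.66 in the control columns. The groups overlapped only in that the APRIL value of column 2 lay below control column 3, and the change was +0.36 ± 0.18 (limma adjusted p = 0.4003). APRIL column 3 was the highest library, and without it the change was +0.17. The paralog EIF1B (+0.16), the initiator-binding factor EIF1AX (+0.10), the eIF1A-related EIF1AD (+0.18) and EIF5, the GTPase activator of eIF2 (-0.09), had unadjusted limma p above 0.05. EIF1B and EIF1AX were at -0.05 and -0.03 without APRIL column 3, and EIF1AD at +0.10. In that fit the median of the 6 was -0.04, with 2 positive.

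**Figure D2:**
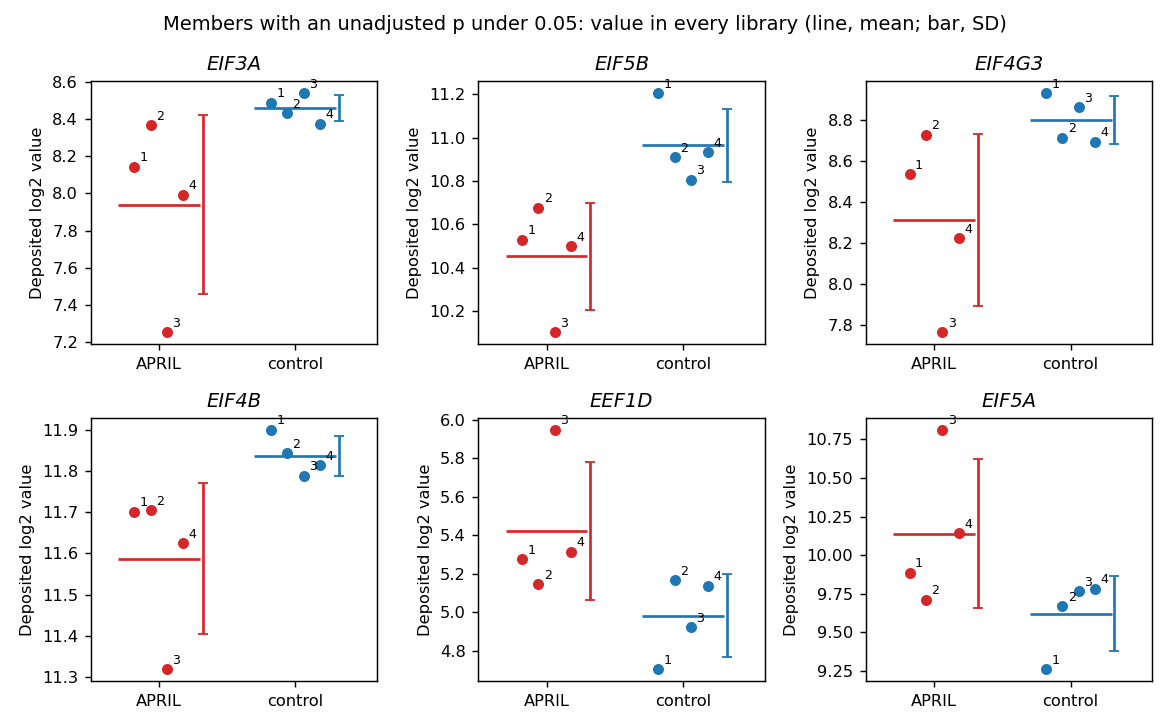
Deposited log2 value (y axis) of the 6 factors with an unadjusted limma p under 0.05 in each APRIL and control library, numbered by column, with the group mean as a line and the SD as a bar (n = 4 per group). APRIL column 3 is the lowest library for EIF3A, EIF5B, EIF4G3 and EIF4B and the highest for EEF1D and EIF5A.

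The genes of eIF2 and of initiator tRNA delivery gave small changes, 2 of 6 positive with a median of -0.04 (1 of 6 and -0.10 without APRIL column 3). EIF2S3L, a copy of the gamma subunit gene, had values of 6.85, 6.95, 6.92 and 6.86 with APRIL (columns 1 to 4), against 7.26, 7.06, 7.17 and 6.998 in the control columns. The APRIL values lay wholly below the control values, and the change was -0.23 ± 0.11 (limma adjusted p = 0.4003). Over its transcript, 41.0% of 50-base stretches also occur in EIF2S3, so reads of both genes can be exchanged. EIF2S3 itself had a change of -0.16 ± 0.13. EIF2S2, the beta subunit, had the highest change of the group, with values of 3.77, 3.69, 3.96 and 3.81 with APRIL (columns 1 to 4), against 3.98, 3.68, 3.64 and 3.60 in the control columns. The groups overlapped, and the change was +0.08 ± 0.14 (limma adjusted p = 0.766). The alpha subunit EIF2S1, whose phosphorylation limits initiation under stress, had a change of -0.01 ± 0.15, and the alternative tRNA carriers EIF2A and EIF2D had -0.07 ± 0.13 and +0.06 ± 0.16.

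All 5 subunits of eIF2B, the exchange factor that reloads eIF2 with GTP, had positive changes, from +0.05 for EIF2B5 to +0.32 for EIF2B2 (median +0.13). None had an unadjusted p under 0.05. EIF2B2, the beta subunit, had values of 3.86, 3.84, 4.33 and 3.92 with APRIL (columns 1 to 4), against 3.50, 3.39, 3.82 and 3.94 in the control columns. The groups overlapped through control column 4, and the change was +0.32 ± 0.18 (limma adjusted p = 0.410). APRIL column 3 was the highest library for EIF2B2, EIF2B3, EIF2B4 and EIF2B5. Without it the change of EIF2B2 was +0.21, 4 of 5 changes were positive with a median of +0.08, and without control column 1 as well the median was -0.00087.

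The 14 genes of eIF3, the scaffold on the small ribosomal subunit, split into 8 positive and 6 negative changes (median +0.05), or 9 positive with a median of +0.03 without APRIL column 3. EIF3A, the largest subunit (chr10:119033670-119080823), had the lowest change of all 54 factors. Its values were 8.14, 8.37, 7.25 and 7.99 with APRIL (columns 1 to 4), against 8.49, 8.43, 8.54 and 8.38 in the control columns. The control values lay within 0.17 of each other, while APRIL column 3 lay 0.74 below the next lowest APRIL value. The groups did not overlap, by the narrow margin of 0.0093. The change was -0.52 ± 0.21 (95% interval -0.99 to -0.05, limma adjusted p = 0.3999). When APRIL column 3 was left out it was -0.29, a smaller size by more than 1.5 times.

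EIF3F, a subunit of the MPN-domain family, had the highest change within eIF3. The values were 6.89, 6.63, 7.60 and 7.18 with APRIL (columns 1 to 4), against 6.27, 6.84, 6.65 and 6.84 in the control columns. The groups overlapped, and the change was +0.42 ± 0.22 (limma adjusted p = 0.4003). It was +0.25 without APRIL column 3. Of the 50-base stretches of EIF3F, 46.9% occur in other genes' transcripts, most in the pseudogene EIF3FP3, which had a change of +0.52 ± 0.21. EIF3C and EIF3CL are near-identical copies on chromosome 16 that share most of their stretches (94.4% of EIF3C and 91.3% of EIF3CL), and their changes of -0.02 and +0.10 cannot be assigned to one gene. The small subunits EIF3G and EIF3K had +0.29 ± 0.14 and +0.30 ± 0.25, and the other 8 changes of the complex lay between -0.05 and +0.16. The change of EIF3G was +0.22 and that of EIF3K +0.02 without APRIL column 3, and with the length and GC trends of each library removed they were -0.11 and -0.02.

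EIF3J-AS1 is a member by its symbol only. It is a non-coding RNA transcribed away from EIF3J (chr15:44527257-44536923), and the libraries do not mark the strand, so its reads cannot be assigned to a strand. It had values of 4.75, 5.11, 5.21 and 4.60 with APRIL (columns 1 to 4), against 4.71, 4.51, 5.25 and 4.98 in the control columns. The groups overlapped throughout and the change was +0.05 ± 0.20 (limma adjusted p = 0.894). Its reads ran from only 5 to 32 in a library.

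In the cap-binding complex eIF4F and its helicases, 8 of 11 genes had negative changes (median -0.10), and the lowest was that of a scaffold. With APRIL column 3 left out, 5 of 11 were positive and the median was -0.07. EIF4G3 (chr1:20806292-21176888), which links the cap-binding protein to the helicase and to eIF3, had values of 8.53, 8.73, 7.76 and 8.22 with APRIL (columns 1 to 4), against 8.93, 8.71, 8.86 and 8.69 in the control columns. APRIL column 2 lay above control columns 2 and 4 and the other APRIL values lay below all controls. The change was -0.49 ± 0.19 (95% interval -0.92 to -0.06, limma adjusted p = 0.3999). Leaving out APRIL column 3 gave -0.31, again a smaller size by more than 1.5 times.

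EIF4G2, a relative of the scaffolds that does not bind the cap-binding protein, had values of 8.17, 8.18, 7.94 and 7.98 with APRIL (columns 1 to 4), against 8.46, 8.20, 8.20 and 8.24 in the control columns. All APRIL values lay below all control values, by the narrow margin of 0.02 between the groups, and the change was -0.21 ± 0.12 (limma adjusted p = 0.414). It was -0.16 without APRIL column 3 and -0.10 without that library and control column 1 together. EIF4G1, the main scaffold, had a change of -0.10 ± 0.15, which was +0.03 without APRIL column 3. The 3 scaffold genes share no 50-base stretch with any other gene's transcript.

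EIF4B, which stimulates the helicase, is at chr12:53006158-53042209 and had values of 11.70, 11.71, 11.32 and 11.62 with APRIL (columns 1 to 4), against 11.90, 11.84, 11.79 and 11.81 in the control columns. The groups did not overlap, the 4 control values lay within 0.11 of each other, and the change was -0.25 ± 0.11 (limma adjusted p = 0.3999). The change was -0.16 without APRIL column 3, smaller by more than 1.5 times, and -0.09 with length and GC trends removed. Its pseudogenes EIF4BP3, EIF4BP6 and EIF4BP7 also had negative changes (-0.49, -0.51 and -0.33) and their lowest values in APRIL column 3. Of the stretches of EIF4B, 33.6% occur in other genes' transcripts, most in EIF4BP6.

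EIF4A1, the main eIF4F helicase, had values of 4.15, 4.19, 4.35 and 4.08 with APRIL (columns 1 to 4), against 4.02, 3.62, 4.41 and 3.96 in the control columns. The groups overlapped, and the change was +0.19 ± 0.18 (limma adjusted p = 0.563). Every 50-base stretch of its transcript also occurs in other annotated genes, most in a read-through that overlaps it, and in APRIL column 1 it held 130 reads against 419 for the pseudogene EIF4A1P10. Its level is therefore uncertain. The cap-binding proteins EIF4E, EIF4E2 and EIF4E3 had changes of -0.11, +0.06 and -0.12. The helicases EIF4A2 and EIF4A3, the second of which belongs to the exon junction complex, had -0.09 and +0.16, and the cofactor EIF4H had -0.02.

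Proteins that bind the cap-binding protein and keep it from eIF4F are the last part of this step. EIF4ENIF1, which carries eIF4E into the nucleus, had values of 5.09, 5.51, 5.15 and 5.25 with APRIL (columns 1 to 4), against 4.84, 5.12, 5.48 and 5.35 in the control columns. The groups overlapped, and the change was +0.05 ± 0.17 (limma adjusted p = 0.882). The 3 eIF4E-binding protein genes are no members, because their symbols end in P and a digit. EIF4EBP1, the best-known mTORC1 target among them, had a change of +0.58 ± 0.30 that was +0.31 without APRIL column 3, EIF4EBP2 had -0.13 ± 0.12, and EIF4EBP3 had +0.42 ± 0.37.

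The group of eIF5A and eIF6 had the highest median change, +0.40 over 4 genes, and its mean deviation was highest in APRIL column 3. EIF5A, the hypusine-bearing factor that helps stalled ribosomes form peptide bonds, is at chr17:7306999-7312463. It had values of 9.89, 9.71, 10.81 and 10.14 with APRIL (columns 1 to 4), against 9.26, 9.67, 9.77 and 9.78 in the control columns. The groups overlapped, with APRIL column 2 below control columns 3 and 4, and the change was +0.52 ± 0.23 (95% interval +0.01 to +1.02, limma adjusted p = 0.3999). Without APRIL column 3 it was +0.29, smaller by more than 1.5 times, and without control column 1 as well +0.17.

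EIF5AL1, a copy of EIF5A, had +0.44 ± 0.23 (+0.21 without APRIL column 3), and 37.9% of the stretches of EIF5A occur in other genes' transcripts, most of them in EIF5AL1. EIF6, which keeps the large subunit from joining too early, had +0.36 ± 0.28 and was +0.06 without APRIL column 3. The second eIF5A gene, EIF5A2, had values of 0.44, 0.75, 1.96 and 0.93 with APRIL (columns 1 to 4), against 1.30, 1.03, 1.18 and 0.75 in the control columns. EIF5A2 had 29 to 94 reads in a library. The groups overlapped, and the change was -0.05 ± 0.31 (limma adjusted p = 0.942), or -0.36 without APRIL column 3. The mean deviation of the 4 genes from their 8-library means was +0.97 in APRIL column 3 and -0.32 to +0.10 in the other 7 libraries. Without APRIL column 3 the median change of the group was +0.13, with 3 of 4 positive.

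The elongation factors had 5 of 6 positive changes with a median of +0.18, or 3 of 6 and +0.07 without APRIL column 3. EEF1D, a subunit of the complex that reloads eEF1A with GTP (chr8:143579697-143599541), had the highest. Its values were 5.28, 5.14, 5.95 and 5.31 with APRIL (columns 1 to 4), against 4.71, 5.17, 4.92 and 5.14 in the control columns. The groups overlapped, with APRIL column 2 below control column 2, and the change was +0.44 ± 0.19 (95% interval +0.0041 to +0.87, limma adjusted p = 0.3999). On leaving out APRIL column 3 it was +0.26, smaller by more than 1.5 times.

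EEF1B2, another exchange subunit, had +0.35 ± 0.18, and EEF1A1, the carrier of charged tRNA, had +0.13 ± 0.15. These were +0.17 and -0.02 without APRIL column 3. Both share stretches with other genes, 59.4% of EEF1B2 (most in the pseudogene EEF1B2P3) and 57.2% of EEF1A1 (most in EEF1A1P5). EEF2, the translocase, shares none and had +0.19 ± 0.15. EEF1E1, which is part of the multi-tRNA synthetase complex in spite of its name, had +0.17 ± 0.28, and -0.10 without APRIL column 3. EEF2K, the kinase that inhibits eEF2, had values of 3.22, 3.47, 3.17 and 3.34 with APRIL (columns 1 to 4), against 3.37, 3.34, 3.51 and 3.23 in the control columns. The groups overlapped, and the change of -0.06 ± 0.14 was the lowest of the group (limma adjusted p = 0.823).

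Single libraries were read across all factors. APRIL column 3 held the highest of the 8 values for 26 of 54 factors and the lowest for 8. Control column 1 held the highest for 12 and the lowest for 14, and control column 2 the lowest for 17. The mean deviation over the 54 was +0.21 in APRIL column 3 and -0.09 to +0.02 in the other 7 libraries. Over all tested genes it was +0.02 in APRIL column 3. The shares of all genes with their highest or lowest value in each library were not computed. By group, APRIL column 3 deviated by +0.97 in eIF5A and eIF6, +0.44 in elongation, +0.32 in eIF2B and +0.26 in start codon choice. In eIF3 it was +0.13 and in eIF2 and tRNA delivery +0.11. In eIF4F and the helicases it was -0.09. APRIL column 3 was also the shallowest library, with a median of 148.5 reads per factor against 192 to 772 in the others. The part of depth in its values was not tested.

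**Figure D3:**
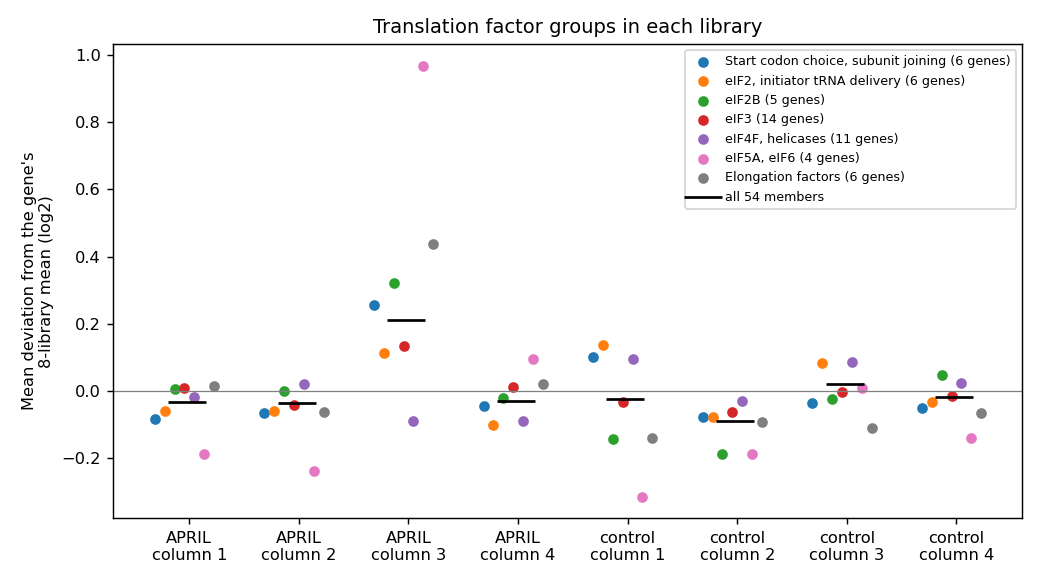
Mean deviation of each factor group from its genes' 8-library means in log2 units (y axis) in each library (x axis), with the mean of all 54 factors as a black bar. APRIL column 3 stands above the other libraries for eIF5A and eIF6 (+0.97) and for the elongation factors (+0.44), and at -0.09 for eIF4F and the helicases.

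Changes were lower for factors with longer transcripts. Over the 54 factors, Spearman's rho between change and length was -0.51, beside -0.54 over 10790 genes, and rho with GC content was 0.46 beside 0.51. These are descriptions across genes of the same 8 libraries, and genes are not independent replicates. The 27 factors with transcripts up to the median length of 2523 bases had 20 positive changes and a median of +0.13, and the 27 longer ones had 12 and -0.02. On leaving out APRIL column 3, the shorter factors had 15 positive changes and a median of +0.02, and the longer ones 13 and -0.02. In that fit rho with length was -0.31 over the factors and -0.37 over all genes, and rho with GC content was 0.67 and 0.65. The 3 lowest changes belong to EIF3A, EIF5B and EIF4G3, with transcripts of 6646, 5777 and 5802 bases, while EIF5A has 1271.

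After removal of the length and GC trends of each library, the median change of the 27 shorter factors was +0.01 and that of the 27 longer ones +0.07. In that fit EIF3A had -0.27, EIF5B -0.25 and EIF4G3 -0.26, all still negative and each smaller by more than 1.5 times. EIF4B had -0.09 and EIF3F +0.17. The changes of 16 of 54 factors turned sign, EIF4E (+0.23), EIF4E3 (+0.21) and EIF6 (-0.01) among them. Of the others, 18 were smaller and 10 larger by more than 1.5 times, and the same shares over all genes were not computed. EIF5A had +0.22 and EEF1D +0.10, while EIF1 (+0.39), EIF2B2 (+0.50) and EIF2S3L (-0.27) were no smaller than before. At an unadjusted p under 0.05 that fit had 6 factors, against 7.88% of 10790 genes. These are not the same 6 as before the removal, since EEF1D was no longer among them.

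**Figure D4:**
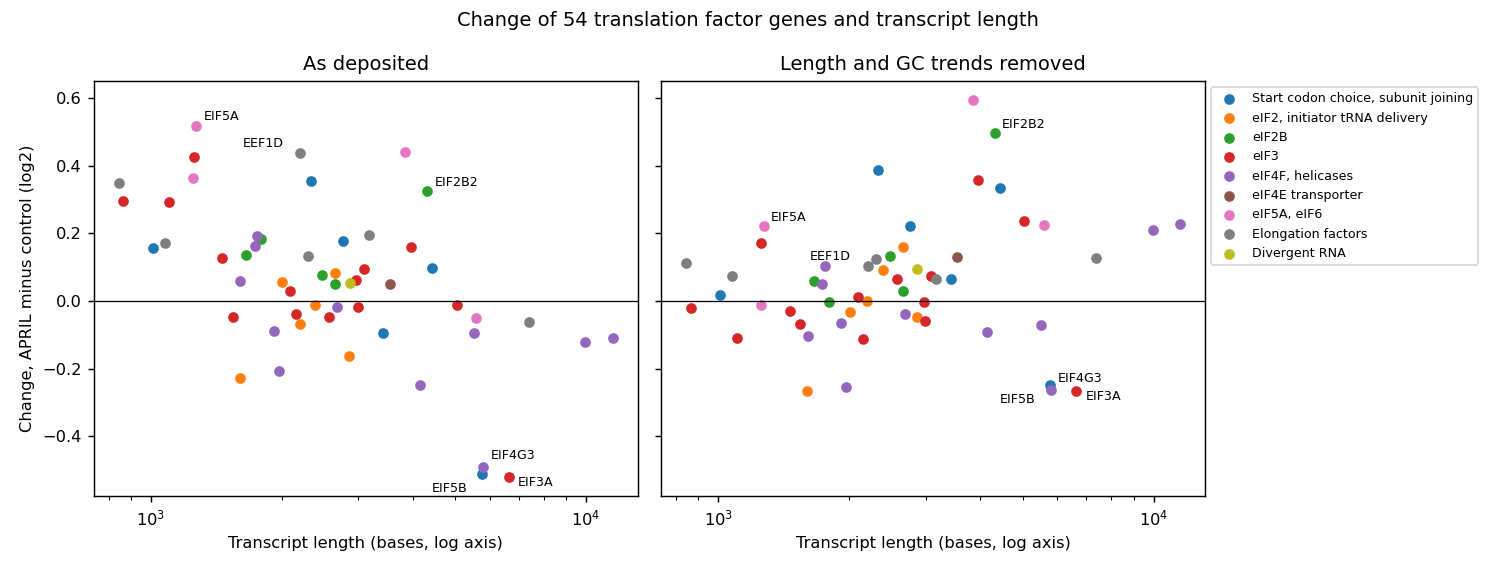
Change of each factor in log2 units (y axis) against transcript length in bases on a log axis (x axis), as deposited on the left and with library trends with length and GC content removed on the right, coloured by role. On the left the changes are lower for longer transcripts (rho = -0.51), with EIF3A, EIF5B and EIF4G3 lowest, and on the right rho is 0.24.

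Levels were compared between genes only per length, as RPKM, which scales reads to the length of 1 annotated transcript per gene and to the recovered reads of the library. They could be computed for 42 of 54 factors. EEF1A1, EEF2, EIF3A, EIF3B, EIF3C, EIF3CL, EIF4A2, EIF4B, EIF4G1, EIF4G2, EIF4H and EIF5B were among the genes whose reads could not be recovered. Recovery fails more readily at high read counts, so some of these may lie above the factors ranked here. In control libraries (mean ± SD, n = 4), EIF5A had the highest level of the 42 at 399 ± 61.9 RPKM. It was followed by EIF3K at 304 ± 24.7, EIF3E at 286 ± 49.3, EEF1B2 at 232 ± 23.8, EIF3I at 224 ± 11.6 and EIF3G at 220 ± 24.4. EIF3K and EIF3E lay within their SDs of each other, as did EEF1B2, EIF3I and EIF3G.

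At the low end were the cap-binding protein EIF4E at 7.74 ± 1.01 RPKM, EIF4E3 at 5.35 ± 0.921, EIF5A2 at 3.94 ± 0.630 and EIF3J-AS1 at 1.74 ± 0.426. Among the 42, EIF5A was thus the highest and its paralog EIF5A2 near the low end, far apart relative to their SDs. The transcripts used for EIF4E and EIF4E3 are the longest of the 54 with 11523 and 9949 bases, and a shorter messenger in these cells would raise their level. Within eIF2B the control levels ran from 14.8 ± 2.70 RPKM for EIF2B2 to 72.7 ± 1.22 for EIF2B5. The 3 eIF2 subunits EIF2S1, EIF2S2 and EIF2S3 had 110 ± 10.5, 46.7 ± 6.02 and 91.3 ± 11.8. Read counts of the 42 genes in 1 library ran from 5 to 2861.

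**Figure D5:**
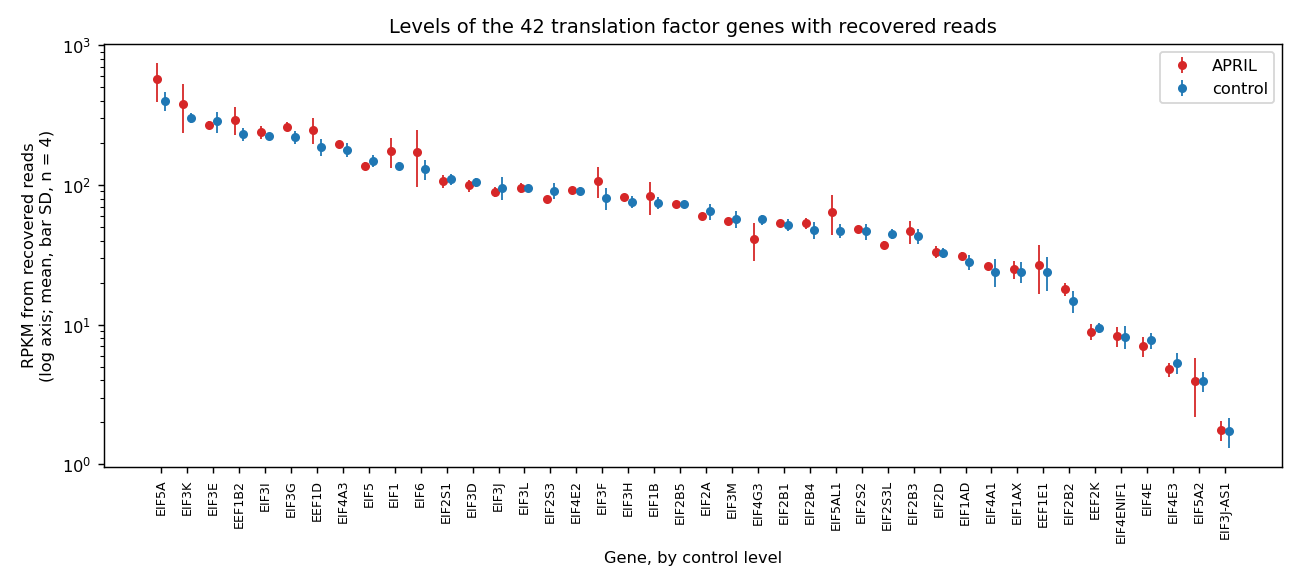
Level in RPKM on a log axis (y axis) of the 42 factors with recovered reads, ordered by control level (x axis), with the mean and SD of 4 APRIL and 4 control libraries. Levels run from EIF5A at 399 down to EIF3J-AS1 at 1.74 in control libraries.

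Genes that act with the factors were taken from lists, and 0 passed limma's adjusted threshold in any of them. In termination and ribosome recycling 2 of 9 changes were positive (median -0.10), while 5 of 9 were positive (median +0.07) with length and GC trends removed. ABCE1, the ATPase that splits ribosomes after termination, had values of 6.07, 6.09, 6.01 and 5.98 with APRIL, against 6.67, 6.31, 6.35 and 6.27 in the controls. The groups did not overlap, and the change was -0.36 ± 0.13, and -0.35 without APRIL column 3 (limma adjusted p = 0.3999). It was -0.26 without APRIL column 3 and control column 1 together, and -0.15 with length and GC trends removed. NEMF, a ribosome quality control factor, had -0.53 ± 0.20, also without overlap, and -0.32 without APRIL column 3. With length and GC trends removed NEMF was at -0.26. These 2 of 9 were the list's genes with an unadjusted p under 0.05 (11.9% of all genes had one) and with groups that did not overlap (7.81% of all genes).

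Among 15 genes of the eIF2 kinases and the integrated stress response, 8 had positive changes (median +0.0031, and -0.02 without APRIL column 3) and 3 an unadjusted p under 0.05, beside 11.9% of all genes. CHAC1 and TRIB3, targets of the stress factor ATF4, had +0.63 ± 0.24 and +0.41 ± 0.18, and the kinase gene EIF2AK3 had -0.30 ± 0.13. TRIB3 had +0.25 without APRIL column 3. ATF4 itself had +0.15 ± 0.15 and DDIT3 +0.06 ± 0.27 (-0.23 without APRIL column 3), and ASNS, another ATF4 target, had +0.01. Of 14 mTORC1 pathway genes, 7 were positive (median +0.01, and +0.12 without APRIL column 3) and 1, the inhibitor TSC1 at -0.48 ± 0.21, had an unadjusted p under 0.05 (11.9% of all genes). RHEB, the GTPase that activates mTORC1, had +0.34 ± 0.16 with all APRIL values above all control values. PDCD4, which inhibits eIF4A, had -0.23 ± 0.11 with all APRIL values below. Over all tested genes the groups did not overlap for 7.81%. With length and GC trends removed RHEB was at +0.32 and PDCD4 at -0.04. MTOR had -0.37 ± 0.25. TSC1 was at -0.26, RHEB at +0.17 and MTOR at -0.08 without APRIL column 3.

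Of 7 poly(A)-binding protein and helicase genes, 3 had positive changes (median -0.09, and -0.17 without APRIL column 3) and 1 an unadjusted p under 0.05 (11.9% of all genes). This was DDX3X, an RNA helicase of initiation, at -0.35 ± 0.15, with PABPC1, the main poly(A)-binding protein, at +0.02 ± 0.10. Of 11 genes that modify eIF5A and eEF2 or insert selenocysteine, 8 were positive (median +0.20, and +0.10 without APRIL column 3) and 0 had an unadjusted p under 0.05. DHPS and DOHH, the enzymes that make hypusine on eIF5A, had +0.32 ± 0.15 and +0.53 ± 0.24. Without APRIL column 3 these were +0.21 and +0.34, beside +0.29 for EIF5A. With length and GC trends removed they were +0.02 and +0.08, beside +0.22 for EIF5A. In these lists the genes of smallest p were named, and ATF4, DDIT3, ASNS, MTOR and PABPC1 were added for their roles after their values had been seen.

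In the authors' deposited table, 4 of 54 factors had a p-value under 0.05, as did 982 of the 11526 genes with a p-value there (8.52%). They were EIF2S3L at 0.0112, EIF5B at 0.0141, EIF4B at 0.0385 and EIF3G at 0.0476, in the authors' deposited table. EIF5B and EIF4B were also under 0.05 unadjusted in limma.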

How the data were processed

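RNA-seq of 8 MonoMac 6 libraries (4 APRIL, 4 control) was analysed from 1 deposited table. Per the labels' protocols, libraries were made with TruSeq RNA v2, an unstranded kit based on poly(A) selection. Per the submitters' processing notes, bcl2fastq and TopHat2 2.0.13 were used with hg19. Nothing in the sources used here names the read counter, annotation or gene filter.

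The deposited per-library columns hold log2 values scaled by TMM factors, per the file headers and the range of -4.96 to 15.44. For APRIL against control, the authors' table also holds a deposited p-value, a linear fold ratio, the log10 of the p-value and its signed form. The deposited log10 and signed columns were not used.

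The main test was limma 3.58.1 in R 4.3.3 on all 11257 genes whose linear value reached 1 in 4 or more libraries (273 left out). The fit had an intensity trend, robust empirical Bayes and 1 term, the group. Two-sided p-values were adjusted by Benjamini-Hochberg over all genes, at a threshold of 0.05. Checked on simulated data for this comparison (11257 genes, 200 changed), it recovered 62% of genes moved by 1 log2 unit and 96% of genes moved by 2, with 6.51% false calls. The simulated noise was independent between genes and libraries, without the trends of each library with length and GC content. Changes under 1 log2 unit, as all those of the factors were, were not simulated.

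A gene's reads counted as recovered where its 8 deposited values were log2 of whole reads plus 0.5 over 1 whole divisor, plus a library constant, with a chance expectation under 0.001. This held for 11141 of 11530 genes and for 0 of 300 with moved constants. The divisor does not track gene length, so deposited levels were not compared between genes. Transcript lengths, GC content and shared 50-base stretches came from GENCODE 29 on GRCh38, with 1 transcript per gene, and start windows from RefSeq on GRCh38.p14. Tables and plots were made in Python 3.11.15 (pandas 2.3.3, numpy 2.4.6, matplotlib 3.10.9, scipy 1.17.1).

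The members and gene lists were chosen with earlier results of these data known. Per-library values and limma statistics are given for each factor with an unadjusted p under 0.05 or with groups that do not overlap, and for the highest and lowest change of each role group (17 factors). Alternatives were no trend, other filters, quality weights, median centring, removal of library trends with length and GC content, voom on recovered reads, and leaving out libraries.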

Additional observations from a re-analysis of the deposited data

Results flagged for a closer look

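Each group of 4 values of each factor was searched for a library that lies far from the other 3 (Dixon's test at the 95% level). Of 108 such groups, 10 (9.26%) held one, where chance flags about 5%. The share over all genes was not computed. The 108 groups come from the same 8 libraries, so they are not independent of each other. In 6 of the 10 the library was APRIL column 3, in 3 control column 1 and in 1 control column 3.

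In APRIL column 3 the log2 value was above the other 3 APRIL libraries for EIF1B, a paralog of EIF1 (6.23, next 5.43), for the eIF2B subunits EIF2B2 (4.33, next 3.92) and EIF2B4 (7.45, next 7.06), and for the eIF3 subunit EIF3I (10.16, next 9.73). It was below them for the eIF3 subunit EIF3C (12.01, next 12.21) and the scaffold EIF4G1 (5.55, next 6.03). In control column 1 the value was high for the tRNA carrier EIF2A (7.26, next 6.91) and for EIF4G2 (8.46, next 8.24), and low for the eIF2B subunit EIF2B5 (8.79, next 8.84). In control column 3 it was low for the eIF3 subunit EIF3B (10.25, next 10.42). Of these genes, EIF4G2 is among the 5 whose groups did not overlap.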

How the results depend on the processing

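No paired analysis was possible because the column headers carry no replicate numbers. In every alternative 0 factors passed the adjusted threshold. The number at an unadjusted p under 0.05, 6 in the fit as reported, was 3 in limma without trend and robust estimation (11.4% of all genes) and 3 without APRIL column 3 and control column 1 together (7.52% of all genes). Leaving out 1 library gave 1 to 10. It was 9 with quality weights (17% of all genes). The median change ran from -0.013 without both of those libraries to +0.08 without APRIL column 1, within 1 SD of the library means (0.09). Of 267 values of the 17 named factors under 16 alternatives, 253 kept their sign, and 13 factors kept it throughout. The 14 that reversed belong to 4 factors with changes near 0. The 17 were named by their p-values, overlap or extreme changes in these same libraries, so how often they kept their sign does not describe the 54. Over all 54 factors, 10 changes turned sign without APRIL column 3 and 16 with length and GC trends removed. EIF3J-AS1 was -0.15 with quality weights, -0.095 without the 2 libraries together and, when 1 library was left out, -0.064 to +0.18 (negative without APRIL column 2 or 3 or control column 2). EIF4ENIF1 was -0.13 with quality weights, -0.034 without the 2 libraries together and -0.068 to +0.14 when 1 was left out (negative without APRIL column 2 or control column 1). After removal of length and GC trends, EEF2K was +0.13 and EIF5A2 +0.22. EIF5A2 was -0.36 to +0.15 when 1 library was left out (positive without APRIL column 1 or 2 or control column 1). The cause of these moves was not tested. Of the 17 named factors, 4 could not be fitted in voom. Reads per library were few for EIF3J-AS1 (5 to 32) and EIF5A2 (29 to 94), and the part of depth in these moves was not tested.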

Other observations

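Mitochondria use factors of their own, encoded by separate nuclear genes. Of 14 such genes, 5 had positive changes (median -0.08), 0 passed limma's adjusted threshold and 2 had an unadjusted p under 0.05, beside 11.9% of all genes. The median was +0.05 with 9 positive after removal of length and GC trends, and +0.06 with 8 positive with library quality weights. MTIF2, the mitochondrial initiation factor that carries the initiator tRNA, had log2 values of 5.56, 5.44, 5.06 and 5.27 in APRIL columns 1 to 4. In control columns 1 to 4 it had 6.06, 5.63, 5.63 and 5.70, with all APRIL values below all control values and a change of -0.42 ± 0.16. TUFM, the mitochondrial elongation factor that delivers charged tRNA, had 5.73, 5.58, 5.93 and 5.84 with APRIL and 5.07, 5.53, 5.48 and 5.57 in control. All its APRIL values lay above all control values, and its change was +0.36 ± 0.15. Over all tested genes the APRIL values lay wholly above for 3.62% and wholly below for 4.19%.

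All 15 pseudogenes of the factors in the table were tested. Of these, 9 had positive changes, which ran from -0.51 (EIF4BP6) to +0.52 (EIF3FP3), and 2 had an unadjusted p under 0.05 (EIF3FP3 and EEF1A1P9), beside 11.9% of all genes. Their reads can belong to the parent genes.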
